A study of Homo sapiens with 2 samples.

Results

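Of the 263 protein-coding genes outside chromosome 19 that the deposited table names ZNF followed by a number, 169 had a mean of at least 1 FPKM over a control library and a library from cells treated with D16, and these 169 genes are described here. FPKM is a level corrected for gene length and for library size. The set was chosen on these same 2 libraries, so its differences are a description with no test. The other 94 genes lay under a mean of 1 FPKM, 22 of them listed at 0 in both libraries and 9 in 1 library. The 160 ZNF genes of chromosome 19 taken by the same rule served as the most similar set, and 11830 of the 60612 genes in the table, 10342 of them protein-coding, had a mean of at least 1 FPKM.

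RNA was sequenced from MDA-MB-231, an established human triple-negative breast cancer line, to find genes that differ after exposure to D16, which the labels call a chalcone. The control cells grew in normal medium and the treated cells were given 24 µM D16 for 48 h; both were kept in RPMI-1640 with serum and antibiotics, and no vehicle is named for the controls. Each group held 1 library, so no difference below has a replicate check and "higher" and "lower" describe these 2 libraries. Depth was alike, with 72108404 deposited counts for the control and 73303902 for the treated cells, and about 4 counts made 1 read pair. The markers of the line were present, with VIM at 502 FPKM in the control and 259 in the treated library, EGFR at 25.9 and 20.5, and CD44 at 25.6 and 25.6. The receptor gene ESR1 stood at 0.0192 and 0.00935 FPKM, PGR and the T-cell gene CD3E were listed at 0 in both libraries, the leukocyte gene PTPRC stood at 0.0540 and 0.00935, and the fibroblast genes COL1A1 and DCN stood at 2.72 and 2.46 and at 0.227 and 0.229. The part of the lower VIM level in the differences of the ZNF genes was not tested.

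Most ZNF genes encode C2H2 zinc finger proteins, in which a pair of cysteines and a pair of histidines hold a zinc ion and the residues between them read DNA bases. Many also carry a KRAB domain, which recruits the corepressor TRIM28 and through it the histone methyltransferase SETDB1 and heterochromatin protein 1, and silence transposable elements and imprinted loci. Others carry a SCAN domain, through which they pair with one another, or act in ribosome assembly, RNA processing or promoter activation. The genes arose by repeated duplication, most densely on chromosome 19, and smaller clusters lie on other chromosomes.

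The repeated unit that defines the family is shown first. It is given as 1 finger with its linker from each of 3 KRAB genes at the extremes of the set. ZNF267 and ZNF84 had the largest positive differences. ZNF182 had the lowest difference, with 1 FPKM added, among KRAB genes without a SCAN domain. The stretches are coding bases, 5′ to 3′, from the longest GENCODE 29 coding sequence of each gene, and capitals mark the codons of the 2 cysteines and the 2 histidines.
ZNF267: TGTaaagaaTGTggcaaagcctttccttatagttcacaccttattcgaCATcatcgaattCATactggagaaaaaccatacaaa
ZNF84: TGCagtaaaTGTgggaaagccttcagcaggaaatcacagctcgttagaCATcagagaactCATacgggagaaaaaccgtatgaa
ZNF182: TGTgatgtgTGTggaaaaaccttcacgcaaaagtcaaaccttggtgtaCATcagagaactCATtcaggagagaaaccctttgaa
The ZNF267 stretch is finger 8 of 14 and lies on chromosome 16, the ZNF84 stretch is finger 10 of 19 on chromosome 12, and the ZNF182 stretch is finger 8 of 14 on the X chromosome. Each is 84 bases long. Such shared units let reads of one ZNF gene align to another, so levels of close paralogs are less certain than those of single-copy genes; the sources used here do not give how multiply aligning reads were counted.

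The 300 bases around the RefSeq start, 250 before it and 50 after it, are shown for 4 genes. These are the 3 genes with the largest positive differences and ZNF655, the gene with the lowest difference of all 169. They are RefSeq sequence of GRCh38.p14, each on the plus strand.
ZNF267: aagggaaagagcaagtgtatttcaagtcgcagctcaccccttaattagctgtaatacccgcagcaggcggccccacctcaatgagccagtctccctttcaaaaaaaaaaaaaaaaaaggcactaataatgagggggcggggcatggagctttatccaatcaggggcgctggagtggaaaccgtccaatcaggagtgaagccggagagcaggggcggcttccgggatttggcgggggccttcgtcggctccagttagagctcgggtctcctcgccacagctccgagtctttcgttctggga
ZNF84: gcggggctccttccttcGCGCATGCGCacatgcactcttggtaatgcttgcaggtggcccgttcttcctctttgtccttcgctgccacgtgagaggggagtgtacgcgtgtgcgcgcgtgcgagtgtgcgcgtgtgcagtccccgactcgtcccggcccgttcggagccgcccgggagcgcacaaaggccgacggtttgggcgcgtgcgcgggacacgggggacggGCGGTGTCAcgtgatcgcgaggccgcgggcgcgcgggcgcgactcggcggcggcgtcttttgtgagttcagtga
ZNF326: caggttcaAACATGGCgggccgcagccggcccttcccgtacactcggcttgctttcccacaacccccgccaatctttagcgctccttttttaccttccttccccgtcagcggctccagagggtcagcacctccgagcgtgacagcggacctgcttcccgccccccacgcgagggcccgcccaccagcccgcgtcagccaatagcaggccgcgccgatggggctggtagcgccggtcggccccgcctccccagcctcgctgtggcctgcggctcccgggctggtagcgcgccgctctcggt
ZNF655: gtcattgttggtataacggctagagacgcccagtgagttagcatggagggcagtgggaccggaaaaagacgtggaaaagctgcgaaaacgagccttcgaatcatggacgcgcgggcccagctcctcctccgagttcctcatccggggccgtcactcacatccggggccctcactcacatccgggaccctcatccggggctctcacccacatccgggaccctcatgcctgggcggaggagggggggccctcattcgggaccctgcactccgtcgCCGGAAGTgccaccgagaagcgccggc
Capitals mark matches, on either strand, to the letters of known motifs that are described with the promoters of the whole set at the end: in ZNF84 the NRF1 letters and, read on the other strand, the core of the antioxidant response element, in ZNF326 the YY1 letters on the other strand, and in ZNF655 the ETS letters. No searched motif was found in the ZNF267 window. The windows lie at chr16:31873557-31873856 for ZNF267, chr12:133037259-133037558 for ZNF84, chr1:89994860-89995159 for ZNF326 and chr7:99558392-99558691 for ZNF655. In the deposited coordinates ZNF84 starts at 133037292 and ZNF655 at 99558406, so most of both windows lies inside the gene bodies given below.

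Across the 169 genes, ZNF levels were low and more of them were higher than lower in the treated library. The difference of each gene was taken as log2((treated FPKM + 1) / (control FPKM + 1)), in which a difference of 1 is a 2-fold difference after 1 FPKM is added to both levels; the addition understates the difference of low genes. The median level was 2.45 FPKM in the control and 3.09 in the treated library, against 6.11 and 6.55 over all protein-coding genes. The median difference was 0.25, with quartiles of -0.042 and 0.58, against 0.079 over all 11830 genes and 0.090 over protein-coding genes. In 118 of the 169 genes (69.8%) the treated level was the higher one, against 56.9% of all genes and 57.7% of protein-coding genes. In bulk RNA, a smaller number of expressing cells and less RNA per cell cannot be told apart.

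How far the share of higher genes exceeded that of all genes depended on the threshold and on the processing. At least 1.5-fold higher on that scale were 40 of the 169 genes (23.7%), against 13.2% of all genes, and at least 1.5-fold lower were 11 (6.51%), against 11.0%. With 5 FPKM added in place of 1, the 1.5-fold share turned to 3.55%, below the 5.49% of all genes. Protein-coding genes gave nearly the same shares as all genes, 13.1% and 10.4% at 1.5-fold and 3.34% and 3.73% at 2-fold. At least 2-fold higher were 4 (2.37%), against 3.63% of all genes, and at least 2-fold lower were 5 (2.96%), against 3.97%, so with 1 FPKM added neither 2-fold share exceeded that of all genes. The 2-fold counts depended on the added FPKM and on the scaling of the libraries. With 0.1 FPKM added in place of 1, 24 genes (14.2%) were at least 2-fold higher, against 6.06% of all genes, and 9 (5.33%) lower, against 7.16%. With both libraries rescaled to equal sums of FPKM the counts were 17 (10.1%, against 5.75%) higher and 3 (1.78%, against 2.89%) lower, and with counts scaled by the TMM method they were 18 (10.7%, against 4.54%) higher and 9 (5.33%, against 6.48%) lower. With differences centred on the median of well-expressed coding genes they were 4 (2.37%, against 2.51%) higher and 7 (4.14%, against 5.85%) lower, and 96 of the 169 genes (56.8%) then lay above 0, against 43.3% of all genes.

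**Figure D1:**
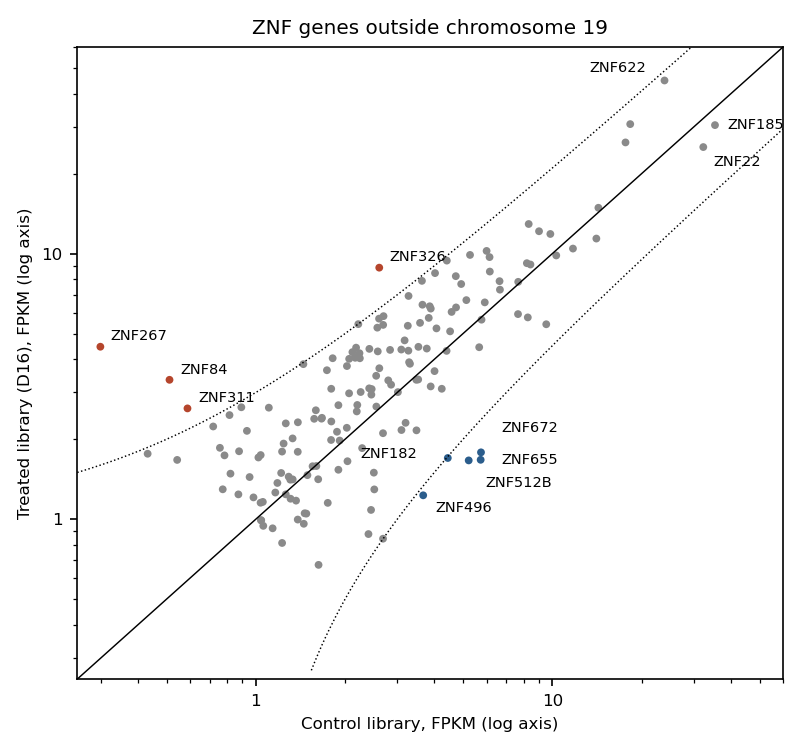
Level of each of the 169 ZNF genes in the control library (x axis, FPKM, log scale) against the treated library (y axis, FPKM, log scale); the solid line marks equal levels, the dotted lines a 2-fold difference after 1 FPKM is added, and the 4 red and 5 blue points the genes beyond them. Most points lie above the solid line, ZNF267 stands farthest above it at 0.299 against 4.46 FPKM, and the 5 blue points lie between 3.67 and 5.75 FPKM in the control.

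At matched levels the ZNF genes also had the higher medians. Between 1 and 5 FPKM on average, the 129 ZNF genes had a median difference of 0.21 and 21.7% of them were at least 1.5-fold higher, whereas the 4269 protein-coding genes of that range had a median of -0.00050 and 9.58% were as much higher. At 5 FPKM and above, the 40 ZNF genes had a median of 0.34, against 0.15 for 6073 coding genes. The filter took 17 genes that lay under 1 FPKM in the control only, all of which had to be higher in the treated library and 11 of which were at least 1.5-fold higher, and 10 that lay under it in the treated library only. The 142 genes at 1 FPKM or more in both libraries had a median of 0.22, with 101 (71.1%) above 0, against 58.1% of all genes at that level in both libraries, and 29 (20.4%) at least 1.5-fold higher, against 12.6%. Just inside the filter lay ZNF341, ZNF140 and ZNF516, with means of 1.002, 1.02 and 1.02 FPKM and differences of -0.083, -0.035 and -0.038. Just outside lay ZNF641, ZNF605 and ZNF280D, with means of 0.998, 0.993 and 0.991 FPKM and differences of 0.20, 0.18 and -0.28.

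Depth set the precision of single genes. The 169 genes held between 40 and 3597 read pairs in the control library, with a median of 310, and between 59 and 3223 in the treated library, with a median of 375. The 95% interval of the treated to control ratio of FPKM, an exact Clopper-Pearson interval of counting error only, lay above 1 for 95 genes, below 1 for 32 and held 1 for 42. Over all 11830 genes 43.7% of intervals lay above 1 and 31.5% below, and these shares say nothing of the variation between cultures.

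ZNF267 had the largest difference of the set. This KRAB gene at chr16:31873807-31917357 stood at 0.299 FPKM in the control and 4.46 in the treated library, a ratio of 14.9 (95% counting interval 10.7 to 20.9) from 40 and 616 read pairs. ZNF84, a KRAB gene at chr12:133037292-133063298 whose longest coding sequence holds 19 fingers, stood at 0.512 FPKM in the control and 3.35 in the treated library, a ratio of 6.55 (5.28 to 8.05). Both genes were near the lower end of the set in the control and above its median in the treated library. ZNF311, a KRAB gene at chr6:28994785-29005316, stood at 0.588 FPKM in the control and 2.61 in the treated library, a ratio of 4.44 (3.11 to 6.36) from only 40 and 183 read pairs. These 3 genes lay under 1 FPKM in the control and entered the set only through the treated library, so their direction was fixed by the filter.

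ZNF326 was the one gene of the 4 that lay above 1 FPKM in both libraries. It encodes a subunit of the DBIRD complex, which links RNA polymerase II elongation to alternative splicing, and lies at chr1:89995110-90035533. Its level was 2.61 FPKM in the control and 8.86 in the treated library, a ratio of 3.39 (3.10 to 3.72) from 606 and 2138 read pairs. Just short of the 2-fold line lay ZNF621, a KRAB gene of chromosome 3, at 2.22 and 5.43 FPKM with a difference of 0.998, and ZNF280C of the X chromosome, at 1.45 and 3.84 FPKM with a difference of 0.98.

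The 5 genes at least 2-fold lower were of middling level in the control and near 1 to 2 FPKM in the treated library. ZNF655 at chr7:99558406-99576453, which encodes a protein known to bind the signalling protein Vav, stood at 5.73 FPKM in the control and 1.67 in the treated library, 3.43-fold lower (95% counting interval 3.00 to 3.88). ZNF672 at chr1:248838210-248849517 stood at 5.75 and 1.79 FPKM, 3.22-fold lower (2.66 to 3.90). ZNF512B at chr20:63956704-63969930 stood at 5.22 and 1.66 FPKM, 3.14-fold lower (2.69 to 3.67).

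The other two carry KRAB domains. ZNF496 at chr1:247297412-247331846, with both a KRAB and a SCAN domain, stood at 3.67 FPKM in the control and 1.23 in the treated library, 2.98-fold lower (2.60 to 3.42). ZNF182 at chrX:47974851-48003989 stood at 4.44 and 1.70 FPKM, 2.61-fold lower (2.14 to 3.23). ZNF7, a KRAB gene of chromosome 8, lay just short of the line at 2.69 and 0.844 FPKM, with a difference of -0.999. Without the added FPKM, ZNF7 was 3.18-fold lower (2.69 to 3.76), more than ZNF512B, ZNF496 and ZNF182. None of these genes was among those with a body overlapping, on the same strand, another gene with a mean of at least 1 FPKM. Overlaps with genes under that mean were not searched. By its coordinates ZNF182 overlaps such genes, ZNF81 at 0.593 and 1.17 FPKM and ZNF630 at 0.258 and 0.429, and their strands were not compared.

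The most abundant genes of the set are not typical KRAB repressors. ZNF622, the human counterpart of the yeast 60S subunit assembly factor Rei1, stood at 23.9 FPKM in the control and 44.9 in the treated library. ZNF593, the counterpart of the yeast 60S export factor Bud20, stood at 18.3 and 30.7 FPKM. ZNF330, which encodes a nucleolar protein, stood at 17.7 and 26.2 FPKM. All 3 were thus higher in the treated library, with differences of 0.88, 0.72 and 0.55. ZNF185, which encodes an actin-associated LIM domain protein and held no C2H2 pattern, stood at 35.4 and 30.5 FPKM. ZNF22 stood at 32.3 and 25.2 FPKM and ZNF511 at 14.3 and 14.9. These 3 lay near or below 0, with differences of -0.21, -0.35 and 0.054.

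The 3 assembly and nucleolar genes belong to a list of 10 ZNF genes with roles in RNA, ribosomes, ubiquitin or SUMO, of which 8 (80.0%) lay above 0, against 56.9% of all genes, and 3 (30.0%) reached 1.5-fold, against 13.2%, with a median difference of 0.20; centred, ZNF207 and ZNF346 lay below 0. ZNF598, the ubiquitin ligase that marks collided ribosomes, stood at 6.64 and 7.88 FPKM, and ZNF451, a SUMO ligase, at 2.80 and 3.33. ZNF207, a kinetochore and spindle protein, stood at 8.44 and 9.10 FPKM and ZNF346, which binds double-stranded RNA, at 1.31 and 1.41. These 4 differed by at most 0.22. ZNF638, a partner of the HUSH silencing complex, stood at 4.40 and 4.30 FPKM, and ZNF706 was the lowest of the list at 8.27 and 5.75 FPKM with a difference of -0.46.

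Of 20 listed promoter and chromatin factors without a KRAB box, 17 belonged to the set. Of these, 12 (70.6%) were higher in the treated library, close to the 69.8% of the 169 genes, against 56.9% of all genes. Their median difference was 0.30. With 1 FPKM added, 2 (11.8%) were at least 1.5-fold higher, against 13.2% of all genes, and 1 (5.88%) at least 1.5-fold lower, against 11.0%. Centred, ZNF281, ZNF609 and ZNF462 lay below 0. ZNF143, an activator of small nuclear RNA and many coding promoters, was the highest at 4.41 FPKM in the control and 9.41 in the treated library, a ratio of 2.14 (1.89 to 2.41). ZNF410, known for activating the CHD4 gene, stood at 5.28 and 9.89 FPKM, a ratio of 1.87 (1.71 to 2.05). Its body overlaps PTGR2 on the same strand, and the ratio of the summed counts of both genes was 1.503.

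The 3 zinc finger partners that act together in the ZMYND8 complex did not share a sign: ZNF687 stood at 3.26 and 5.35 FPKM, ZNF592 at 3.27 and 4.31, and ZNF532 at 2.04 and 1.65. ZNF644, a partner of the histone methyltransferases G9a and GLP, stood at 3.83 and 5.73 FPKM. ZNF292 stood at 1.57 and 2.39 FPKM, ZNF148 at 2.61 and 3.70, ZNF131 at 2.55 and 3.47 and ZNF335, a component of a histone methyltransferase complex, at 4.07 and 5.23. All of these but ZNF532 were between 1.29-fold and 1.64-fold higher. ZNF281 at 8.21 and 9.21 FPKM, ZNF609 at 4.52 and 5.10, ZNF462 at 1.29 and 1.45 and ZNF639 at 5.77 and 5.64 lay nearer to 0. ZNF395 stood at 14.1 and 11.4 FPKM and ZNF318 at 5.67 and 4.44. ZNF608 was the lowest factor of the list, at 2.51 FPKM in the control and 1.29 in the treated library, 1.94-fold lower (1.63 to 2.32). ZNF827 lay under the filter at 0.623 and 0.626 FPKM, ZNF711 was listed at 0 in both libraries, and ZNF469 was listed at 0 in the control and stood at 0.00608 FPKM in the treated library.

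Of 7 listed genes known from breast cancer or epithelial cells, 3 belonged to the set. ZNF217, an oncogene amplified in breast tumours, stood at 9.02 FPKM in the control and 12.1 in the treated library, a ratio of 1.35 (1.25 to 1.45). ZNF703, amplified in luminal breast tumours, stood at 3.86 and 6.34 FPKM, a ratio of 1.64 (1.41 to 1.92), and ZNF652 at 1.49 and 1.47. Both amplified genes were thus higher in the treated library. ZNF366, ZNF423 and ZNF750 were listed at 0 in both libraries and ZNF365 stood at 0.0351 and 0.0170 FPKM.

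The classes of the KEGG entries in the table had different medians. Of 60 genes with a KRAB entry, 48 (80.0%) lay above 0 and 20 (33.3%) reached 1.5-fold, with a median difference of 0.35, while 5 (8.33%) were at least 1.5-fold lower. Of the 60, 12 lay under 1 FPKM in the control only and had to be higher, and 8 of these were among the 20. Of 84 genes with no entry, 52 (61.9%) lay above 0 and 12 (14.3%) reached 1.5-fold, with a median of 0.13, while 5 (5.95%) were at least 1.5-fold lower, and 3 of the 84 lay under 1 FPKM in the control only. At 1 FPKM or more in both libraries, 36 of 43 KRAB genes (83.7%) lay above 0 and 12 (27.9%) reached 1.5-fold, with a median of 0.33, and 49 of 78 genes with no entry (62.8%) lay above 0 and 10 (12.8%) reached 1.5-fold, with a median of 0.13. Of all genes at that level in both libraries, 58.1% lay above 0 and 12.6% reached 1.5-fold, so the genes with no entry lay near these shares. The 10 genes with KRAB and SCAN had a median of 0.25, the 6 with SCAN alone 0.49 and the 9 with another entry 0.31. The table leaves several KRAB proteins without an entry, so the last class is mixed. The difference between the classes was not tested.

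**Figure D2:**
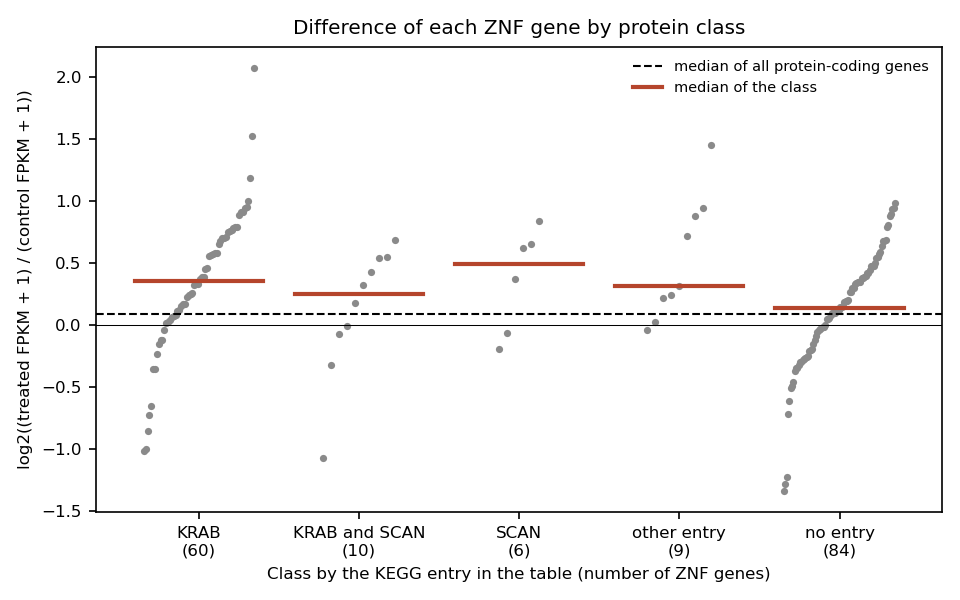
Difference of each ZNF gene (points, y axis, log2 scale with 1 FPKM added) by the class of its KEGG entry (x axis, number of genes in parentheses), with red bars at the class medians and a dashed line at the median of all protein-coding genes, 0.090. The KRAB genes, with a median of 0.35, spread from -1.01 to 2.07; the 3 of them above 1 lay under 1 FPKM in the control and passed the filter only through the treated library.

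The number of fingers ordered the genes only weakly. The coding sequences of the 169 genes held a median of 8 finger patterns and at most 33, in ZNF462. The 67 genes with 10 fingers or more had a median difference of 0.34, with 51 above 0, and the 53 genes with 5 to 9 fingers and the 40 with 1 to 4 had medians of 0.19 and 0.18. The 9 genes with no pattern, among them ZNF185, ZNF330, ZNF395, ZNF608 and ZNF703, had a median of -0.21, with 4 above 0. Over the 169 genes, which share the same 2 libraries, Spearman's rho of the difference with the number of fingers was 0.14 and Pearson's r 0.13.

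Base composition was only weakly related to the difference, in the set and in protein-coding genes. The median GC content of the coding sequence was 48.5% for the ZNF genes and 51.8% for protein-coding genes. Spearman's rho of the difference with coding GC was -0.19 over the ZNF genes and -0.13 over 10313 coding genes. With the control level, which is itself part of the difference, rho was -0.18 over the ZNF genes and -0.052 over 10342 coding genes. The 85 ZNF genes at or under the median GC of the set had a median difference of 0.33, against 0.15 for 3981 coding genes in the same range. The 84 ZNF genes above it had a median of 0.19, against 0.047 for 6332 coding genes. KRAB genes had medians of 0.38 and 0.29 on the 2 sides of that GC value, and the other ZNF genes 0.19 and 0.12.

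The chromosomes carried different medians. On 18 chromosomes with at least 5 genes of the set, 16 medians lay above 0, and 14 lay above the median of all protein-coding genes of the same chromosome. The ZNF medians ran from -0.14 to 0.55, a spread of 0.68, while the coding medians, each over many more genes, ran from -0.0045 to 0.13, a spread of 0.14. With centred differences 11 of the 18 medians lay above 0 and 14 above the coding median.

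**Figure D3:**
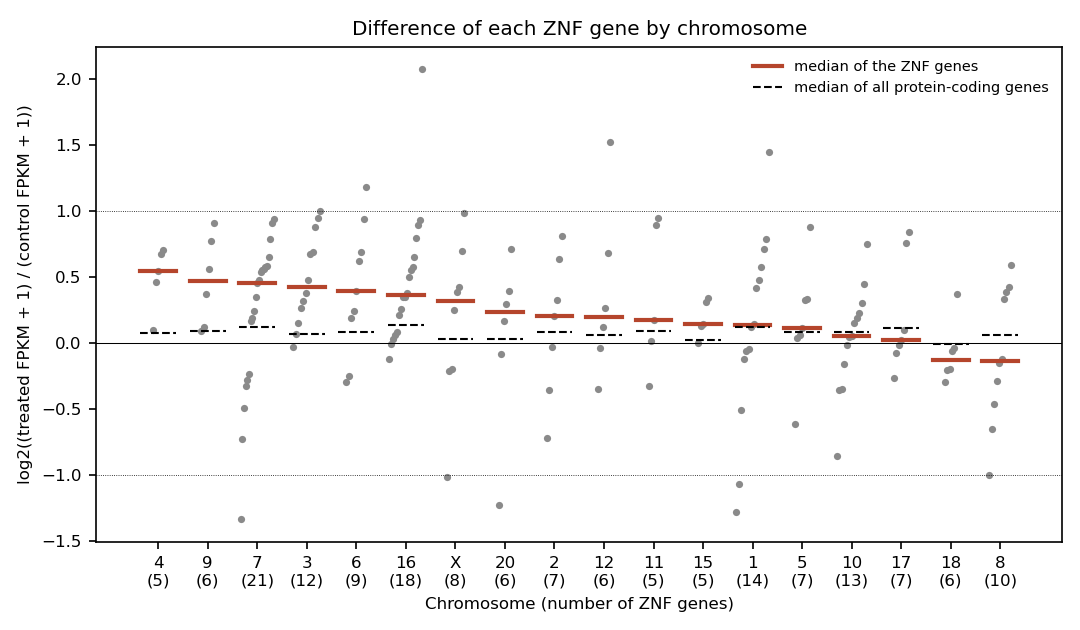
Difference of each ZNF gene (points, y axis, log2 scale with 1 FPKM added) on the 18 chromosomes with at least 5 genes of the set (x axis, number of genes in parentheses), ordered by the median. Red bars mark the ZNF median and dashed bars the median of all protein-coding genes of the chromosome; the red bars run from 0.55 on chromosome 4 to -0.14 on chromosome 8, the dashed bars from 0.13 to -0.0045.

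Chromosome 4 had the highest median, 0.55 over 5 genes, all of them above 0 unless centred, from ZNF518B at 0.096 to ZNF718 at 0.70. All 6 genes of chromosome 9 also lay above 0 unless centred, with a median of 0.47, from ZNF462 at 0.095 to ZNF189, a KRAB gene, at 0.91. Chromosome 7 held the most genes, 21, with a median of 0.45 and 15 above 0, from ZNF655 at -1.33 to ZNF138 at 0.94. High medians thus occurred both where all genes lay on one side and where they lay far apart. On chromosomes 4, 9 and 7, 56.6%, 58.6% and 60.1% of the coding genes lay above 0.

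Chromosome 3 had a median of 0.43, with 11 of 12 genes above 0, from ZNF639 at -0.028 to ZNF621 at 0.998. Chromosome 6 had a median of 0.40, with 7 of 9 genes above 0, from ZNF318 at -0.29 to ZNF311 at 1.19. On chromosome 16 the median was 0.36, with 16 of 18 genes above 0, from ZNF688 at -0.12 to ZNF267 at 2.07. These 3 chromosomes held few genes below 0. The X chromosome had a median of 0.32 with 5 of 8 genes above 0, and its ends were ZNF182 at -1.01 and ZNF280C at 0.98. On chromosomes 3, 6, 16 and X, 55.7%, 56.6%, 61.1% and 54.1% of the coding genes lay above 0.

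Medians between 0.12 and 0.23 were found on 7 chromosomes. They were 0.23 on chromosome 20, from ZNF512B at -1.22 to ZNF337 at 0.71, and 0.21 on chromosome 2, from ZNF512 at -0.72 to ZNF142 at 0.81. Chromosome 12 stood at 0.19, from ZNF664 at -0.35 to ZNF84 at 1.52, and chromosome 11 at 0.18, from ZNF215 at -0.32 to ZNF143 at 0.95. Chromosome 15 had the narrowest range, from ZNF710 at -0.0017 to ZNF106 at 0.34 around a median of 0.14. Chromosome 1 had the widest range of the 18 chromosomes, from ZNF672 at -1.28 to ZNF326 at 1.45, with a median of 0.14 and 8 of 14 genes above 0. Of its coding genes, 61.0% lay above 0. On chromosome 5 the median was 0.12, from ZNF608 at -0.61 to ZNF622 at 0.88.

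The remaining 4 chromosomes lay near or below 0 and below the coding median of the same chromosome. Chromosome 10 stood at 0.054 over 13 genes, from ZNF248 at -0.85 to ZNF37A at 0.75, and chromosome 17 at 0.026 over 7, from ZNF594 at -0.26 to ZNF232 at 0.84. On chromosome 18 the median was -0.13 with 1 of 6 genes above 0, from ZNF236 at -0.30 to ZNF397 at 0.37. On chromosome 8 it was -0.14 with 4 of 10 above 0, from ZNF7 at -0.999 to ZNF703 at 0.59. On chromosomes 18 and 8, 50% and 55% of the coding genes lay above 0. Chromosomes 14 and 22 held only 3 genes and 1 gene.

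Some ZNF genes that lay side by side shared a sign and others did not. Runs were taken as at least 3 genes of the set on 1 chromosome with each start within 500 kb of the next, which gave 12 runs with 54 genes, and 7 of the runs held genes on both sides of 0. Over the whole set 51 of the 169 genes lay below 0, and how many mixed runs that share alone would give was not computed. Genes of a run often descend from one another and are not replicates. ZNF genes under the filter that lie within a run were left out of it and of its counts.

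The longest run, 9 genes at chr7:149069641-149867479, had a median of 0.55 with 6 genes above 0. ZNF786 stood at 0.718 FPKM in the control and 2.23 in the treated library, ZNF425 at 0.878 and 1.80, and ZNF398 at 2.46 and 3.09. ZNF212 stood at 4.93 and 7.68 FPKM, ZNF777 at 6.14 and 9.70, and ZNF746, whose product represses the coactivator gene PGC-1α and is degraded through parkin, at 2.03 and 3.77. These 6 genes were the higher ones. Between them lay ZNF282 at 7.66 and 5.92 FPKM and ZNF783 at 2.45 and 1.08, and at the end of the run ZNF862 at 2.50 and 1.497.

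The run of 8 genes at chr16:30378106-31084196 had 7 above 0 and a median of 0.36; centred, ZNF764 and ZNF689 also lay below 0. ZNF668 was its highest, at 0.815 FPKM in the control and 2.47 in the treated library, followed by ZNF768 at 8.33 and 12.9. ZNF629 stood at 3.58 and 5.49 FPKM, ZNF48 at 2.06 and 2.98 and ZNF646 at 1.899 and 2.69. ZNF764, ZNF688 and ZNF689, next to one another among the genes of the set, lay near 0, with differences of 0.063, -0.12 and 0.029. ZNF785, under the filter, lies between ZNF688 and ZNF689 and stood at 0.369 and 0.339 FPKM. Also under the filter within the span, ZNF747 was lower at 0.527 and 0.233 FPKM and ZNF771 higher at 0.437 and 0.898. The other run of this chromosome, 5 genes at chr16:3112560-3409364, had a median of 0.55. It held ZNF205 at 3.27 and 6.93 FPKM, ZNF174 at 2.42 and 4.38, ZNF75A at 1.80 and 3.10, ZNF200 at 0.874 and 1.24, and ZNF263 at 1.60 and 1.59.

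**Figure D4:**
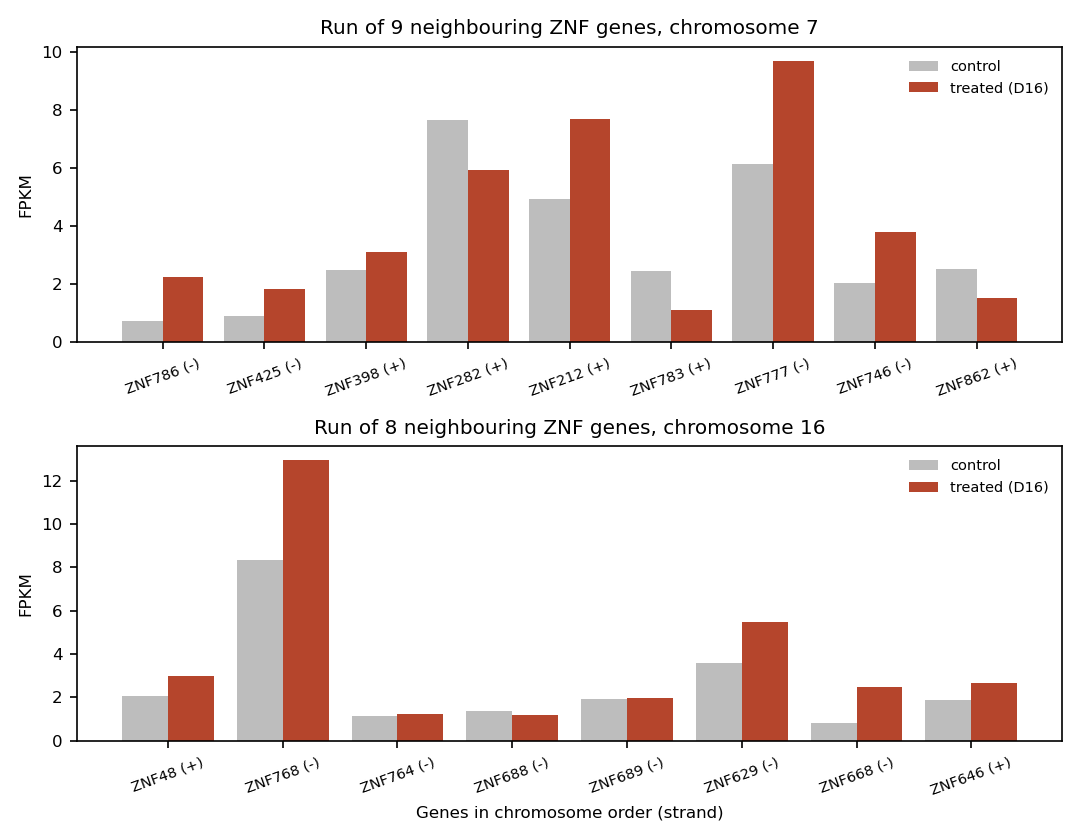
Level of each gene (bars from 0, y axis, FPKM) in the control library (grey) and the treated library (red) in the 2 longest runs of neighbouring ZNF genes, in chromosome order with the strand in parentheses (x axis). On chromosome 7, 6 of 9 genes are higher in the treated library, with ZNF282, ZNF783 and ZNF862 lower, and on chromosome 16, 7 of 8 are higher.

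In 5 runs all genes of the set lay above 0, although ZNF620, ZNF354B and ZNF354C lay below it with centred differences. The 5 genes at chr3:44431705-44737083 had a median of 0.48: ZNF445, which maintains imprints, stood at 0.953 and 1.44 FPKM, ZNF197 at 2.24 and 4.22, ZNF35 at 2.41 and 3.11, ZNF502 at 2.16 and 4.05, and ZNF501 at 1.39 and 2.32. The 3 genes at chr4:53286-499102, ZNF595, ZNF718 and ZNF721, had differences of 0.46, 0.70 and 0.68. The 3 genes at chr7:64519878-64833681, ZNF680, ZNF107 and ZNF138, had differences of 0.17, 0.79 and 0.94, the last from 0.894 and 2.64 FPKM. Some genes under the filter lay lower within these spans. ZNF141, between ZNF718 and ZNF721, stood at 1.04 FPKM in the control and 0.861 in the treated library. In the chromosome 3 span ZNF660 was lower, at 0.138 and 0.0705 FPKM, and ZNF852 higher, at 0.285 and 0.614.

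The fourth run of this kind, at chr3:40477113-40539794, held ZNF621 at 0.998 beside ZNF619 at 0.16 and ZNF620 at 0.072. The bodies of ZNF619 and ZNF620 overlap on the same strand, and the ratio of their summed counts was 1.17. The fifth run of this kind, at chr5:178711512-179083977, held the paralogs ZNF354A, ZNF354B and ZNF354C at 0.33, 0.12 and 0.042. Within its span ZNF879, under the filter, was higher in the treated library, at 0.181 and 0.748 FPKM.

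In the remaining 4 runs the genes lay on both sides of 0. At chr8:144720907-144950888, ZNF7, ZNF250 and ZNF251 had differences of -0.999, -0.65 and -0.15 and ZNF34 and ZNF16 of 0.39 and 0.42. At chr10:37776526-38150293 the minus-strand genes ZNF248 and ZNF25 had differences of -0.85 and -0.35 and the plus-strand genes ZNF33A and ZNF37A of 0.23 and 0.75. At chr1:247034637-247331846, ZNF670, ZNF669 and ZNF496 had differences of 0.79, 0.13 and -1.07. Each of these 3 runs held at least 1 gene more than 1.5-fold lower. At chr10:43556344-43648881, ZNF239, ZNF485 and ZNF32 lay close to 0, at 0.19, 0.15 and -0.15.

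Genes that start back to back had the same sign about as often as opposite signs. Among 4 pairs of ZNF genes with starts within 1000 bp on opposite strands, 2 pairs had the same sign and 2 opposite signs. ZNF2 stood at 1.23 and 1.80 FPKM and ZNF514, which starts 19 bp away, at 4.24 and 3.10. ZNF449 stood at 1.899 and 1.54 FPKM and its partner ZNF75D at 1.04 and 1.74. The pairs of ZNF398 with ZNF425 and of ZNF646 with ZNF668 were higher in the treated library in both genes. Of 15 pairs of a ZNF gene with another coding gene, 8 had the same sign and 7 opposite signs. ZNF655, the lowest gene of the set, stood at 5.73 and 1.67 FPKM while FAM200A, whose start overlaps it on the other strand, stood at 3.85 and 7.04. ZNF142 stood at 2.57 and 5.26 FPKM and its partner BCS1L at 3.57 and 6.82. FAM200A and BCS1L were picked after their values were seen. The libraries were made strand-marked, but the sources used here do not give whether the counting used the strand, so reads over such overlaps may be split differently.

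On the same strand, 10 of the 169 genes overlapped another gene with a mean of at least 1 FPKM. Genes under that mean were not searched. The own ratio and the summed ratio lay farthest apart for ZNF775, which stood at 1.48 and 1.05 FPKM. Its own ratio was 0.709, with a counting interval of 0.498 to 1.005 from 80 and 59 read pairs. The summed counts with REPIN1, whose body overlaps it, had a ratio of 4.02. The summed ratio includes the counts of REPIN1 itself, so an effect of the overlap on ZNF775 was not tested. For ZNF514 the own ratio was 0.731 and the ratio summed with MRPS5 was 0.892. The median of the 159 genes without such an overlap was 0.27.

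The promoters of 142 genes were found among the 300-base windows of RefSeq and searched on both strands for 7 motifs. The ETS letters CCGGAAGT were in 25 of the 142 (17.6%), against 10.2% of 8454 coding promoters and 4.44% of all 27305 windows. The ZNF143 motif was in 4 (2.82%), against 0.615% of coding promoters and 0.256% of all windows, and the cyclic AMP response element TGACGTCA was in 8 (5.63%), against 3.55% and 1.98%. The core of the antioxidant response element, TGACNNNGC, was in 20 (14.1%), close to the 15.3% of coding promoters and the 13.6% of all windows. The NRF1 motif was in 4 (2.82%, against 2.48% and 1.36%) and the YY1 letters GCCATNTT in 12 (8.45%, against 11.3% and 6.82%). The heat shock element was in none of the 142 windows, against 0.260% of coding promoters and 0.487% of all windows, which says only that its letters are not in these windows.

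Medians differed with the letters, as a description with no test. For the counts above 0 given here, the share was 69.8% over the 169 genes and 56.9% over all genes. ZNF84 passed the filter only through the treated library, so its direction was fixed. The 20 genes with TGACNNNGC, ZNF84 among them, had a median difference of 0.57, with 18 above 0, and the other promoters a median of 0.19, while over all coding genes the medians were 0.13 with these letters and 0.088 without. The 25 genes with CCGGAAGT had a median of 0.45, with 19 above 0, and the others 0.22, and over all coding genes the medians were 0.24 and 0.075. ZNF655, the gene with the lowest difference, also held CCGGAAGT. The order was the other way for GCCATNTT, with 0.080 in the 12 genes that held it, ZNF326 among them, and 0.27 in the others, and for the NRF1 motif, with 0.088 in the 4 genes that held it and 0.27 in the others. The 8 genes with TGACGTCA had a median of 0.39, against 0.23 in the others, and the 4 with the ZNF143 motif 0.33, against 0.26. A match to letters is not a bound site.

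The cofactors through which KRAB proteins act, as listed here, were mixed. Of 30 listed genes 29 passed the filter of 1 FPKM, with a median difference of 0.11 and 18 above 0 (62.1%), against a median of 0.079 and 56.9% over all genes. Of the 29, 2 (6.90%) were at least 2-fold higher, against 3.63% of all genes, and none was at least 2-fold lower, against 3.97%. CBX1, which encodes heterochromatin protein 1 beta, stood at 16.8 FPKM in the control and 47.6 in the treated library, a ratio of 2.84 (2.65 to 3.04). The other heterochromatin protein 1 genes lay nearer to 0, with CBX3 at 37.0 and 34.9 FPKM and CBX5 at 4.47 and 5.67, as did SETDB1 at 4.53 and 4.60; these 3 were named after their values were seen. SUV39H2, a histone H3 lysine 9 methyltransferase, stood at 2.73 and 8.91 FPKM, a ratio of 3.26 (2.79 to 3.83). TRIM28 itself stood at 51.4 and 78.7 FPKM, a ratio of 1.53 (1.48 to 1.59), and WIZ, a zinc finger partner of G9a and GLP, at 5.31 and 7.97. DNMT3B, a DNA methyltransferase, was lower at 3.69 and 2.34 FPKM, as was TASOR, a subunit of the HUSH complex, at 6.14 and 4.24.

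The ZNF genes of chromosome 19 lay higher still. Their median difference was 0.39, with 126 of 160 above 0 (78.8%), 9 at least 2-fold higher (5.63%, against 3.63% of all genes) and none at least 2-fold lower (against 3.97%), so the median of the genes outside chromosome 19 was lower by 0.15, a difference between 2 sets of the same 2 libraries that was not tested. Among genes with a KRAB entry the medians were closer, at 0.35 outside chromosome 19 and 0.40 over 121 genes on it. Genes with no entry stood at 0.13 outside and 0.37 over 36 genes on chromosome 19. Among related families outside chromosome 19, the 10 ZSCAN genes had a median of 0.52 with 9 above 0, the 5 ZKSCAN genes 0.26, the 7 ZFP genes 0.25 and the 29 ZBTB genes, which carry a BTB domain, 0.076.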

How the data were processed

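RNA-seq of 1 control and 1 treated library was used, with groups taken from the labels. The authors deposited FPKM values and estimated counts per gene, named so per the file headers; absent genes are listed at 0.0001 and were read as 0. HISAT2 2.0.4, StringTie 1.3.4d and cutadapt 1.9 are named, with no role, per the submitters' processing notes; the sources used here do not give the genome build. Coordinates other than promoter windows are those of the table; all 169 genes were found in GENCODE 29, 63 (37.3%) with the same start and end and all with both ends within 50000 bp. Low counts pile up at multiples of 4 (in the control, 473 genes have 3 counts, 1308 have 4 and 254 have 5), and each 4 were read as 1 read pair. Intervals are exact Clopper-Pearson bounds on read pairs, multiplied by the common factor of 0.962 between the ratios of FPKM and of counts, and cover counting error only.

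No test was run. The 169 genes and all gene lists were chosen with earlier results of these data known. Named were genes at least 2-fold apart, the 6 most abundant, the highest and lowest of each chromosome with 5 genes, listed genes, genes of runs, the 3 nearest each side of the filter and up to 6 cofactors; ZNF280C, ZNF7 and the overlapping genes were named after their values were seen. KRAB and SCAN classes come from the table's KEGG entries and fingers from an in-frame codon pattern in GENCODE coding sequences, in place of the protein sequences that were planned. Alternatives were pseudocounts of 0.1 and 5 FPKM, other filters, equal sums, centring, CPM from the deposited counts with edgeR 4.0.16 TMM, leaving out overlaps, biotypes or chromosomes and, added after the data were seen, 1 FPKM required in both libraries. Of the deposited tables, 8 per-sample columns of a top list, a pathway table and a sheet without headings were not used. Steps were tested on simulated data. Python 3.11.15, numpy 2.4.6, pandas 2.3.3, scipy 1.17.1, matplotlib 3.10.9 and R 4.3.3 were used.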

Additional observations from a re-analysis of the deposited data

How the results depend on the processing

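With 0.1 FPKM added, 24 genes were at least 2-fold higher and 9 lower, and the spread of the chromosome medians was 0.93. With 5 FPKM added no gene was 2-fold apart either way (0 and 0), the median of the ZNF genes was 0.11, the median minus that of chromosome 19 was -0.047, the spread was 0.33, and the share at least 1.5-fold higher was 3.55%, below the 5.49% of all genes. With the filter raised to 5 FPKM, 1 gene was higher and 0 lower, and no chromosome kept 5 genes, so the spread has no value. With no filter the median was 0.14 and the spread 0.58. Requiring 1 FPKM in both libraries, an alternative chosen after seeing the data, left 1 gene at least 2-fold higher and a spread of 0.54. Equal sums of FPKM gave 17 and 3 genes and a median of 0.38, and moved the median of all genes by 0.15. Centring subtracted 0.15 and gave a median of 0.092. CPM with TMM scaling gave 18 genes higher (10.7%, against 4.54% of all genes) and 9 lower (5.33%, against 6.48%) and a spread of 0.89. The 44 genes typed only as protein-coding gave 0 higher and 2 lower, a median minus chromosome 19 of -0.0050 and a spread of 0.35. Leaving out each chromosome in turn gave 3 to 4 genes higher, 3 to 5 lower, medians of 0.21 to 0.27, medians minus chromosome 19 of -0.19 to -0.13 and spreads of 0.60 to 0.68; the lowest count of 3 was without chromosome 1. The median of the ZNF genes minus that of all genes was positive under each of these settings, from 0.068 to 0.26. Where overlaps, biotypes or chromosomes were left out, only the ZNF genes were restricted and the median of all 11830 genes was kept. The 0.26 comes from the 44 genes typed only as protein-coding. Of 555 values of 111 named genes under the 5 other pseudocounts and scalings, 398 moved by over 0.1 or changed sign; 14 changed sign when centred and 9 under equal sums, none of them a gene at least 2-fold apart. No paired analysis was possible because each group holds 1 library. Depth limits the genes with about 40 read pairs, and 1 library per group limits all of them.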

Other observations

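Among the 94 ZNF genes outside chromosome 19 with a mean under 1 FPKM, 35 were higher and 37 lower in the treated library. ZNF778 of chromosome 16 was the one gene of them at least 2-fold higher with 1 FPKM added, at 0.0769 FPKM in the control and 1.63 in the treated library, a ratio of 21.2 (95% counting interval 13.0 to 34.5). ZNF483 of chromosome 9 stood at 0.0825 and 0.505 FPKM, a ratio of 6.12 (4.04 to 9.09), and ZNF879 of chromosome 5 at 0.181 and 0.748, a ratio of 4.13 (2.31 to 7.75). None was at least 2-fold lower on that scale. ZNF33B of chromosome 10, a paralog of ZNF33A, had the lowest difference at 1.44 and 0.426 FPKM, while ZNF33A stood at 1.39 and 1.79. ZNF467 of chromosome 7 stood at 0.418 FPKM in the control and was listed at 0 in the treated library. These genes were picked by the size of their differences after their values were seen.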
